A study of Homo sapiens with 6 samples.

Results

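The genes described here are 10 genes of iron storage, iron uptake and the oxidative stress response in RKO, an established line of human colorectal cancer cells. They were taken by symbol, FTL, FTH1 and TFRC for iron handling and NQO1, HMOX1, GCLM, OSGIN1, GSR, TALDO1 and PGD for NRF2-linked redox metabolism. All 10 were found among the 20289 genes of the table, and all 10 passed the filter on low values. What was measured is ribosome footprints, the pieces of mRNA that translating ribosomes shield from nuclease, as FPKM (fragments scaled by gene length and by sequencing depth). There were 2 groups of 3 libraries, RKO cells carrying a control short hairpin RNA (shControl) and RKO cells whose hairpin is directed against TRMT6 (shTRMT6). TRMT6 is the subunit that works with TRMT61A to place the m1A mark on tRNA. A footprint level combines mRNA amount and ribosomes per mRNA, and these values do not separate them. Whether replicate libraries were grown as independent cultures is not stated in the labels, and the p-values therefore cover no more than the spread among these 6 libraries. The labels name neither the hairpin sequence nor the number of knockdown lines.

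Iron that is not in use is held inside ferritin, a hollow shell of FTH1 (heavy) and FTL (light) subunits. FTH1 carries the ferroxidase site that oxidises iron for storage, and FTL favours mineral formation in the core. TFRC, the transferrin receptor, brings iron into the cell. The mRNAs of these 3 genes carry iron-responsive elements, short hairpins bound by the iron regulatory proteins ACO1 and IREB2 when iron is scarce: binding near the 5′ end blocks ferritin translation, and binding in the 3′ UTR protects TFRC mRNA. NRF2 (gene NFE2L2) is the transcription factor that drives many detoxifying and NADPH-producing enzymes once it escapes its inhibitor KEAP1. The FTL, FTH1, NQO1, HMOX1 and GCLM genes are among its known targets, and HMOX1, which frees iron from heme, links both systems.

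The iron-responsive elements are shown because they set the ferritin genes apart from the redox genes by sequence. They were read from the principal GENCODE 29 transcripts (GRCh38), 5′ to 3′ in the sense of the mRNA, with the loop in capitals.
FTL 5′ UTR: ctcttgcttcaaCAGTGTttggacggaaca
FTH1 5′ UTR: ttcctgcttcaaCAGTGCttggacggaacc
TFRC 3′ UTR: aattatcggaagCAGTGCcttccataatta
TFRC 3′ UTR: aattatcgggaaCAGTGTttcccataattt
The FTL site lies at chr19:48965335-48965364 (plus strand) and the FTH1 site at chr11:61967573-61967602 (minus strand), with the pattern beginning 167 and 171 nt before the start codon. The TFRC sites shown are at chr3:196050978-196051007 and chr3:196050462-196050491 (minus strand). They are the outer members of the 4 TFRC sites that met the search pattern, and elements that depart from the pattern were not counted. The search pattern was the loop CAGTGN on the mRNA strand of UTRs, flanked on each side by 5 bases able to pair (G with T allowed), with a C just before the stem. Of 18977 genes with a UTR 0.627% held it, 0.111% in the 5′ UTR, and among the 10 genes only FTL, FTH1 and TFRC did. The FTL and FTH1 patterns were identical at 16 of 17 bases. A match describes letters, not binding.

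A second set is shown from the RefSeq promoter table (GRCh38.p14), which holds 7 of the 10 genes (FTL, TFRC, NQO1, GCLM, OSGIN1, TALDO1 and PGD; not FTH1, HMOX1 and GSR), from 250 bases before to 50 after the start. NRF2 binds antioxidant response elements, written here as TGACNNNGC and, for the variant also bound by related factors, TGAGTCAGC, each searched on both strands. TGACNNNGC was in 2 of these 7 promoters (GCLM and PGD) and in 13.6% of 27305 promoters. TGAGTCAGC was in 1 of the 7, that of OSGIN1, and in 0.447% of all. Sequence outside this window was not searched, so a promoter without a match may have an element elsewhere. The 3 matches lie on the strand opposite to the gene and so read in reverse complement, with the match in capitals.
OSGIN1: acgggcccctGCTGACTCAcgcttatgaaa
GCLM: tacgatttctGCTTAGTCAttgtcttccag
PGD: cctcgccgggGCAATGTCAtctaggtgctc
They are at chr16:83953131-83953160 (gene on the plus strand), chr1:93909445-93909474 (gene on the minus strand) and chr1:10398853-10398882 (gene on the plus strand), centred 95, 30 and 197 bases upstream of the start in the RefSeq table. These starts differ from the GENCODE 29 gene spans given below, by which the OSGIN1 and PGD matches lie inside the gene and the GCLM window reaches over the gene's 5′ end. OSGIN1, with TGAGTCAGC, rose. Of the 2 genes with TGACNNNGC, PGD fell and GCLM had a log2 fold change of -0.81 that did not pass. Whether a match bears on direction was not tested.

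The libraries set some limits. Their FPKM sums were 1463344 to 1760307, and steps between low values put the depth at an estimated 2574000 to 4098000 reads per library. TRMT6 was at 57.6, 58.4 and 95.3 FPKM in shControl replicates 1 to 3 and at 20.7, 21.9 and 24.1 FPKM in shTRMT6, a log2 fold change of -1.58 (limma adjusted p = 0.00301). Across tested genes shControl replicate 3 correlated less with the other control libraries (Pearson's r 0.936 and 0.944) than these did with each other (0.964). Several redox genes were highest in that library, so results are also given without it. Of 10 markers of colonic epithelium, EPCAM, KRT8, KRT18 and CDX2 were detected in at least 3 libraries, KRT19 and KRT20 stayed at or under 1.52 FPKM, and CDH1, CDX1, VIL1 and CDH17 were at 0 in every library. Of 6 leukocyte markers 3 were at 0 in every library, PTPRC and CD3E among them, CD68 reached 754 FPKM, and CD14 and LYZ were above 0 only in knockdown libraries (up to 4.06 and 0.78 FPKM). Of 6 erythroid markers 4 were at 0 in every library, HBB among them, and their sum, all from HBA1 and HBA2, was 0 to 1.74 FPKM in shControl and 1.1 to 5.6 FPKM in shTRMT6. The part of these low levels in the results was not tested.

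Of the 10 genes, 3 rose after TRMT6 knockdown (FTL, FTH1 and OSGIN1) and 3 fell (GSR, TALDO1 and PGD) by limma at an adjusted p under 0.05 over 11566 tested genes. Of all tested genes 26.5% were called higher and 9.04% lower, so the count of rises is near the background share, while that of falls is above it, a difference that was not tested. The 10 genes were chosen with earlier results of these data known. No count in this paragraph can therefore show an excess over the background. The genes that rose were both ferritin subunits and OSGIN1, and those that fell were glutathione reductase and 2 enzymes of the pentose phosphate pathway. Over all tested genes the median was 0.39 on the log2 scale, and -0.07 with each library scaled to its median. With that scaling 3 of the 10 were higher and 5 lower, against 13.1% and 19.7% of all tested genes, the added calls being NQO1 and GCLM. With the trends by level and coding length removed 3 were higher and 4 lower (GCLM added), against 13.5% and 13.7%. The control and knockdown libraries did not overlap for 9 of the 10 genes, all but HMOX1, against 51.4% of all tested genes. Of these 9 genes 4 were higher (FTL, FTH1, TFRC and OSGIN1) and 5 lower, against 37% and 14.3% of all tested genes.

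**Figure D1:**
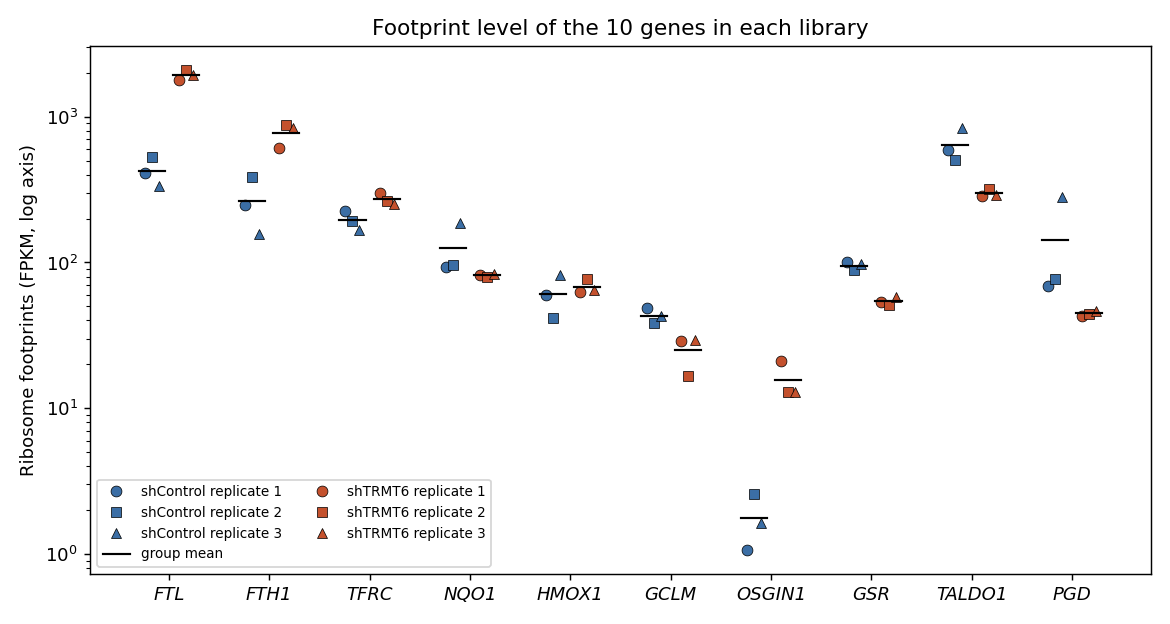
Footprint level (FPKM, log axis) of each of the 10 genes in each of the 6 libraries; circles, squares and triangles are replicates 1, 2 and 3, blue shControl, orange shTRMT6, and bars are group means. FTL, FTH1 and OSGIN1 are higher in every knockdown library, and shControl replicate 3 (blue triangle) stands high for NQO1, TALDO1 and PGD.

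FTL (ENSG00000087086, plus strand of chromosome 19 from 48965301 to 48966878, protein-coding) had the highest level of the 10 genes after knockdown. It was at 408, 529.9 and 337 FPKM in shControl replicates 1 to 3 and at 1792, 2096 and 1934 FPKM in shTRMT6 replicates 1 to 3. Every knockdown library was thus more than 3 times above every control library, with means of 425 ± 97.5 and 1941 ± 152 FPKM (SD, n = 3 each), 4.56-fold higher. On the log2(FPKM + 1) scale FTL rose by 2.21 (SE 0.22, 95% interval 1.71 to 2.71, limma adjusted p = 0.000713). By mean level FTL moved from rank 691 to rank 92 of all genes in the table. The call held in all 14 alternative fits, with log2 fold changes from 1.71 with median scaling to 2.74 with trends removed.

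FTH1 (ENSG00000167996, minus strand of chromosome 11 from 61959718 to 61967660) rose as well. Its control values were 249.8, 387 and 156 FPKM, and its knockdown values 614, 881 and 835 FPKM. The groups did not overlap, although the control libraries varied by more than a factor of 2, with replicate 2 highest and replicate 3 lowest, the same order as for FTL. Means were 264 ± 116 and 777 ± 143 FPKM (SD, n = 3 each), 2.94-fold higher, with a log2 fold change of 1.63 (SE 0.32, limma adjusted p = 0.00528). It stayed called in all 14 alternatives (log2 fold change 1.13 to 2.07), and without shControl replicate 3 it was 1.30 (limma adjusted p = 0.00513).

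Both ferritin genes are short, and short genes as a class did not rise in this comparison. FTL has a coding length of 525 nt and FTH1 of 549 nt, which puts them in the shortest of 8 length bins (75 to 573 nt). Of the 1429 genes in that bin 11.5% were called higher and 21.9% lower, with a median of -0.12 on the log2 scale, against 0.88 in the longest bin. Both are also in the highest of 10 bins of mean level, where 10.2% were called higher and 36% lower and the median was -0.39. With the trends by level and coding length removed in each library, FTL had a log2 fold change of 2.74 and FTH1 of 2.07 (limma adjusted p = 5.28e-05 and 0.000996). GENCODE 29 names 16 FTL and 25 FTH1 pseudogenes, and how reads shared with them were divided is not given in the sources used here.

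**Figure D2:**
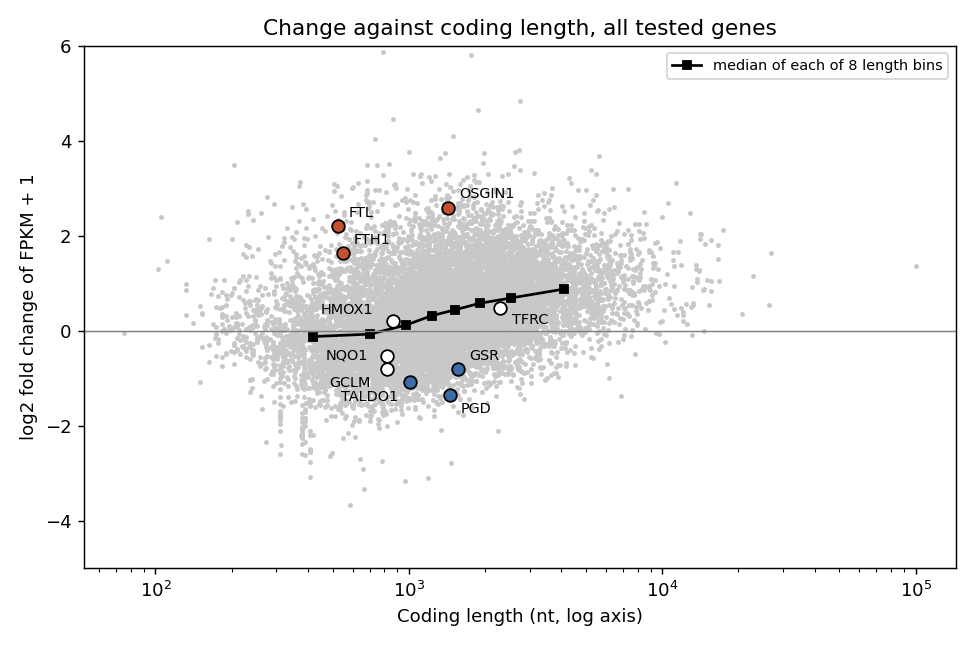
Log2 fold change of FPKM + 1 (shTRMT6 minus shControl) against coding length (nt, log axis) for all tested genes (grey), with the medians of 8 length bins (black squares) and the 10 genes marked (orange called higher, blue called lower, white not called). FTL and FTH1 stand at 2.21 and 1.63, above the median of -0.12 of the shortest bin, and OSGIN1 at 2.60.

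TFRC (ENSG00000072274, minus strand of chromosome 3 from 196027183 to 196082189, coding length 2280 nt) was at 226, 194 and 166 FPKM in shControl and at 300.5, 264 and 252 FPKM in shTRMT6. Each knockdown value lay above each control value, but the gap was small. Means were 195 ± 30.2 and 272 ± 25.2 FPKM (SD, n = 3 each). Its log2 fold change of 0.48 (95% interval 0.02 to 0.95) did not pass (limma adjusted p = 0.0973). The value was near the median of all tested genes, and with median scaling it was -0.01. It passed with each library taken as a share of its sum (0.56, limma adjusted p = 0.0332) and with quantile normalization (0.63, limma adjusted p = 0.0349).

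Ratios within a library do not depend on how libraries are scaled. The summed FPKM of FTL and FTH1 was 2.91, 4.73 and 2.98 times that of TFRC in shControl and 8.01, 11.3 and 10.99 times in shTRMT6. The lowest knockdown ratio was above the highest control ratio, and the difference of the log2 ratios was 1.53 (two-sided exact permutation p = 0.1, which is the least that 3 against 3 libraries can give). Between the subunits, FTH1 was 0.612, 0.730 and 0.464 times FTL in shControl and 0.343, 0.420 and 0.432 times in shTRMT6. That log2 ratio went from -0.757 ± 0.330 to -1.34 ± 0.182 (SD, n = 3 each), again at the exact permutation limit of p = 0.1, and shControl replicate 3 lay close to the knockdown libraries. Ferritin as a share of the FPKM sum was 0.0374%, 0.0528% and 0.0337% in shControl and 0.154%, 0.188% and 0.181% in shTRMT6, a mean of 0.0413% ± 0.0101 against 0.174% ± 0.0181 (SD, n = 3 each), with an exact permutation p of 0.1.

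**Figure D3:**
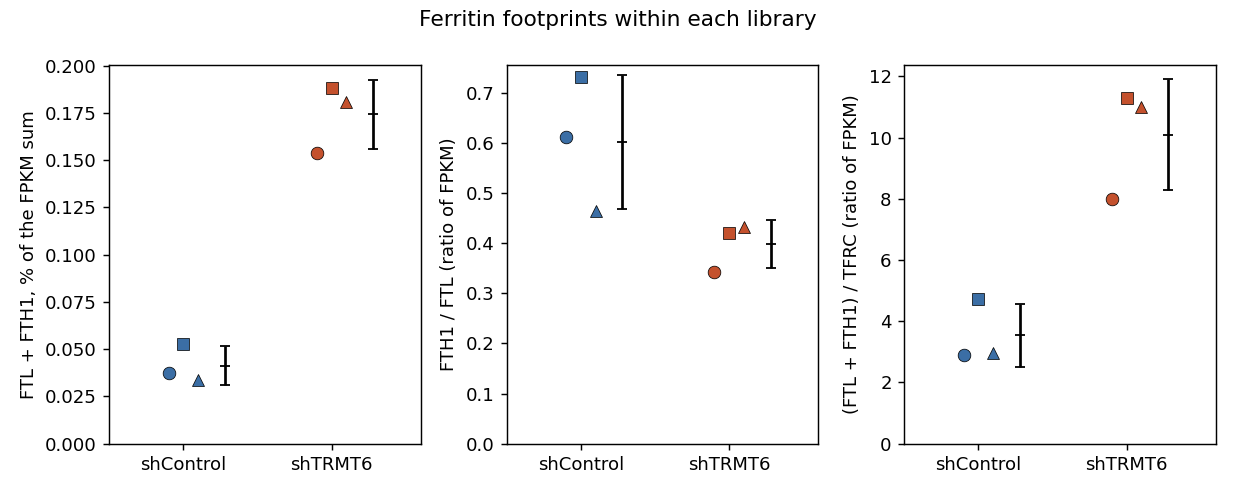
Ferritin footprints in each library, as a percent of the FPKM sum (left), as the ratio of FTH1 to FTL (middle) and as the ratio of FTL plus FTH1 to TFRC (right); symbols are replicates 1 (circle), 2 (square) and 3 (triangle), and the bars beside them are mean ± SD, n = 3. The groups do not overlap in any panel, and the FTH1 to FTL ratio of shControl replicate 3 (0.464) is just above the highest knockdown value (0.432).

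The genes of iron uptake, export and regulation did not move together. Over all tested genes 26.5% were called higher and 9.04% lower, or 13.1% and 19.7% with median scaling. Of 23 listed genes 16 were tested, with 3 higher, 2 lower and a median log2 fold change of 0.13 (3 higher and 3 lower with median scaling, median -0.35). The higher genes were SLC25A37 and SLC25A28, the mitoferrins that carry iron into mitochondria (log2 fold change 1.25 and 1.55), and TFR2, a second transferrin receptor (1.42). SLC25A37 went from 54.8 ± 16.1 to 128 ± 3.69 FPKM (SD, n = 3 each). The mitoferrins stayed called in all 14 alternatives, whereas TFR2 did not pass with quantile normalization or with trends removed. The lower genes were SLC39A14, a zinc and iron importer (-0.83), and PCBP1, a chaperone that hands iron to ferritin (-1.14). Both lost their call without shTRMT6 replicate 1 or 3 and without shControl replicate 1, SLC39A14 also without shControl replicate 2 and PCBP1 also without shTRMT6 replicate 2 (limma adjusted p up to 0.148 and 0.118). PCBP1 was at 313 FPKM in shControl replicate 3 against 129 and 105 FPKM in the other control libraries.

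The regulators of ferritin translation and turnover did not pass. IREB2 was at 45.0, 45.4 and 22.2 FPKM in shControl and 37.5, 36.3 and 36.9 FPKM in shTRMT6 (log2 fold change 0.05, limma adjusted p = 0.923). ACO1 was at 10.9, 8.60 and 37.8 FPKM in shControl and 10.1, 7.04 and 9.33 FPKM in shTRMT6 (-0.76, limma adjusted p = 0.250), and it passed with trends removed (-1.55, limma adjusted p = 0.0355). The groups overlapped for both genes, and in ACO1 shControl replicate 3 stood far above the other 5 libraries. NCOA4, the receptor that delivers ferritin to the lysosome, was at 81.7, 72.7 and 163 FPKM in shControl and 61.3, 66.3 and 59.0 FPKM in shTRMT6. Its groups did not overlap, with a log2 fold change of -0.66 (limma adjusted p = 0.120), and it passed with median scaling (-1.15, limma adjusted p = 0.0227). NCOA4 also passed with trends removed (-1.11, limma adjusted p = 0.0188) and with quantile normalization (-0.92, limma adjusted p = 0.0451). It did not pass when any library was left out. SLC40A1, the iron exporter, was listed at 0 in every library, as were TF, HEPH, HAMP and FTMT.

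Genes other than ferritin whose 5′ UTR holds the same hairpin pattern offer a comparison by sequence. Of 10 such tested genes 3 were higher by limma (30%) and 0 lower, with a median of 0.33 on the log2 scale, near the 26.5% called higher and the median of 0.39 among all tested genes. The higher genes were ADAR (1.14), CSF1 (1.25) and ZNF782 (1.35), named after their values were seen. With limma's p unadjusted and under 0.05, 4 of the 10 were higher and 0 lower; no other tool was run on this set. With FTL and FTH1 included 5 of 12 were higher and the median was 0.68. Both ferritin genes were chosen with earlier results of these data known. The count and median that include them therefore cannot test whether genes with the pattern rose. Of 71 tested genes with the pattern in the 3′ UTR 17 were higher and 3 lower, with a median of 0.47. The share called lower among all tested genes was 9.04%.

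Among iron-sulphur cluster assembly genes, which use iron delivered to mitochondria and cytosol, 3 of 25 were higher and 4 lower (2 and 9 with median scaling), with a median of 0.02 on the log2 scale. The higher ones were the cytosolic reductase NDOR1 (1.79), the assembly factor ISCA1 (1.59) and the ferredoxin reductase FDXR (1.10), which did not pass with median scaling. Among the lower ones were NFU1 (-1.04) and NUBP1 (-1.35), which stayed called in all 14 alternatives. In the heme list 2 of 15 were higher, the heme transporter SLC48A1 (1.21) and the synthesis enzyme UROS (1.11), neither of which passed with median scaling. SLC48A1 also lost its call without shTRMT6 replicate 2 (limma adjusted p = 0.0538) and UROS without shTRMT6 replicate 1 (0.0714). The 3 lower ones were the biliverdin reductases BLVRA (-1.27) and BLVRB (-0.67) and the synthesis enzyme CPOX (-0.98). Of 6 fits with a library left out, BLVRB was called in 0, CPOX in 1 and BLVRA in 6. For both lists the background is 26.5% of all tested genes higher and 9.04% lower (13.1% and 19.7% with median scaling).

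HMOX1, heme oxygenase 1 (ENSG00000100292, plus strand of chromosome 22 from 35380361 to 35394214), which acts just before the biliverdin reductases, was at 59.5, 41.8 and 81.8 FPKM in shControl and at 62.8, 76.75 and 64.6 FPKM in shTRMT6. All 3 knockdown values lay inside the control range. Its log2 fold change was 0.20 (95% interval -0.42 to 0.82, limma adjusted p = 0.599), and it passed in 0 of the 14 alternatives, where it ranged from -0.29 to 0.44.

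NQO1, the quinone reductase often used to report NRF2 activity (ENSG00000181019, minus strand of chromosome 16 from 69706996 to 69726951), was at 93.2, 96.2 and 187 FPKM in shControl and 82.2, 79.7 and 83.2 FPKM in shTRMT6. The knockdown libraries were tightly grouped just under the 2 lower control libraries. The log2 fold change was -0.54 (95% interval -1.18 to 0.11, limma adjusted p = 0.172), and -0.21 without shControl replicate 3. With median scaling it passed (-1.03, limma adjusted p = 0.0263).

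OSGIN1, an oxidative stress response gene that restrains growth (ENSG00000140961, plus strand of chromosome 16 from 83948282 to 83966332), had the largest fold difference of the 10 and the lowest level. It was at 1.07, 2.58 and 1.62 FPKM in shControl and at 21.1, 12.95 and 12.95 FPKM in shTRMT6. The lowest knockdown value was several times the highest control value, with means of 1.76 ± 0.764 and 15.7 ± 4.71 FPKM (SD, n = 3 each), 8.92-fold higher. On the log2(FPKM + 1) scale OSGIN1 rose by 2.60 (SE 0.36, limma adjusted p = 0.00142), and 3.13 with 0.1 added in place of 1. By the steps of low values its control levels rest on an estimated 5 to 10 reads and its knockdown levels on 48 to 84, so the size of the ratio is imprecise. In its bin of mean level, the third lowest of 10, 33.8% of genes were called higher and the median was 0.67, and with trends by level and length removed it had 1.90 (limma adjusted p = 0.00456).

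NRF2 itself and KEAP1 did not pass. NFE2L2 was at 31.1, 49.1 and 47.7 FPKM in shControl and 26.9, 37.1 and 25.7 FPKM in shTRMT6 (log2 fold change -0.49, limma adjusted p = 0.196), and passed with median scaling (-0.97, limma adjusted p = 0.0234). NFE2L2 also passed with trends removed (-1.08, limma adjusted p = 0.0155). KEAP1 was at 35.7, 38.7 and 25.5 FPKM in shControl and 32.0, 38.1 and 35.6 FPKM in shTRMT6 (0.10, limma adjusted p = 0.789). BACH1, the repressor that competes with NRF2 for the same elements, was at 25.8, 36.8 and 33.4 FPKM against 48.8, 39.01 and 62.9 FPKM, without overlap (0.62, limma adjusted p = 0.0976; 0.14 with median scaling and -0.02 with trends removed). Of the 13 genes in this list 1 rose, the small MAF partner MAFG (28.4 ± 8.02 to 91.2 ± 17.0 FPKM, SD, n = 3 each), with a log2 fold change of 1.67 and a limma adjusted p of 0.00281. BTRC, a ubiquitin ligase subunit that marks NRF2 for decay, was the 1 that fell (-1.25, limma adjusted p = 0.0116). With median scaling 1 of the 13 was higher and 4 were lower, against 13.1% and 19.7% of all tested genes. Without that scaling the shares of all tested genes were 26.5% and 9.04%.

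Other known NRF2 targets moved in both directions. Of 29 listed, 18 were tested and 8 were at 0 in every library, ME1, AKR1B10 and AKR1C1 among them. 2 rose, TRIM16 (log2 fold change 1.76) and the cystine importer SLC7A11 (1.00), and 4 fell, PRDX1 (-1.57), GSTP1 (-1.18), CBR1 (-0.94) and CBR3 (-1.01), with a median of -0.32 (1 higher and 7 lower with median scaling). SLC7A11 is low, at 5.37, 4.87 and 4.63 FPKM against 12.7, 7.43 and 13.5 FPKM, and it kept its call in 4 of 14 alternatives. CBR1 and CBR3 lost theirs without shTRMT6 replicate 1 or 3, and CBR3 also without shTRMT6 replicate 2 (limma adjusted p up to 0.0633 and 0.0630). TRIM16, PRDX1 and GSTP1 stayed called in all 14. Beside the counts of this list, 26.5% of all tested genes were higher and 9.04% lower (13.1% and 19.7% with median scaling).

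**Figure D4:**
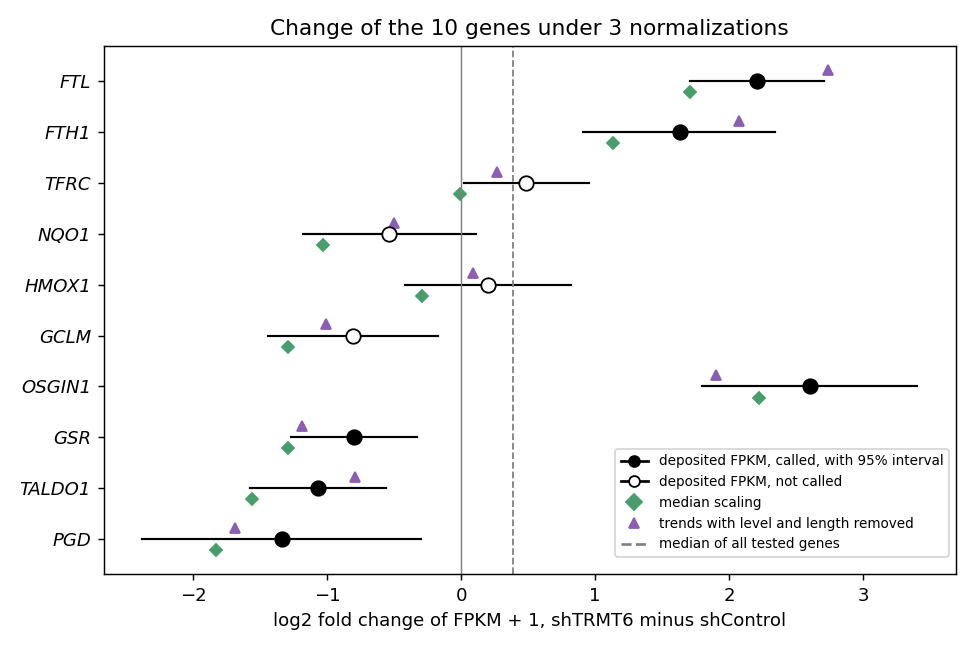
Log2 fold change of FPKM + 1 (shTRMT6 minus shControl) of the 10 genes, as circles with 95% intervals (filled where called), with median scaling (green diamonds) and with the trends by level and coding length removed (purple triangles); the dashed line is the median of all tested genes, 0.39. FTL, FTH1 and OSGIN1 lie right of 1 and GSR, TALDO1 and PGD left of -0.7 under all 3, while TFRC goes from 0.48 to -0.01.

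Among the glutathione enzymes GSR fell, and GCLM was lower in every knockdown library without passing. GSR, glutathione reductase, which restores glutathione with NADPH (ENSG00000104687, minus strand of chromosome 8 from 30678061 to 30727999), was at 100.3, 88.15 and 97.6 FPKM in shControl and at 53.45, 50.7 and 58.3 FPKM in shTRMT6. The groups were well apart and each was tight, with means of 95.3 ± 6.37 and 54.2 ± 3.84 FPKM (SD, n = 3 each). On the log2 scale this is -0.80 (SE 0.21, limma adjusted p = 0.0160). It kept its sign in all 14 alternatives but lost its call without shControl replicate 1 (limma adjusted p = 0.0531), shTRMT6 replicate 1 (0.0699) or shTRMT6 replicate 2 (0.0625).

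GCLM, the modifier subunit that raises the efficiency of the enzyme making the first step of glutathione synthesis (ENSG00000023909, minus strand of chromosome 1 from 93885205 to 93909456), was at 48.3, 38.25 and 43.2 FPKM in shControl and at 28.8, 16.7 and 29.2 FPKM in shTRMT6. All knockdown values were under all control values, and shTRMT6 replicate 2 was lowest. The log2 fold change of -0.81 (SE 0.28) did not pass (limma adjusted p = 0.0506), and it passed in 5 of 14 alternatives. The catalytic subunit GCLC was at 27.6, 31.7 and 29.2 FPKM in shControl and 43.0, 41.9 and 39.8 FPKM in shTRMT6, without overlap (0.48, limma adjusted p = 0.123). That value is near the median of all tested genes, and GCLC was at 0.00 with median scaling and at -0.13 with trends removed. Within a library GCLC was 0.571, 0.830 and 0.677 times GCLM in shControl and 1.49, 2.51 and 1.36 times in shTRMT6 (exact permutation p = 0.1, for a ratio chosen after its values were seen).

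In the wider glutathione list 3 of 23 tested genes were higher and 7 lower, against 26.5% and 9.04% of all tested genes. With median scaling these counts were 1 and 12, against 13.1% and 19.7%. The list median was -0.33 on the log2 scale, and -0.82 with that scaling. With the trends by level and coding length removed, 3 were higher and 4 lower, against 13.5% and 13.7% of all tested genes. The list median was then -0.28. The lower ones were led by GLO1, which clears methylglyoxal (-1.39), GSTP1 (-1.18), GSTO1 (-0.82) and GGCT (-0.86). GSTO1 did not pass with quantile normalization or with trends removed (-0.39, limma adjusted p = 0.128), and GGCT lost its call without shTRMT6 replicate 1 or 3. The glutathione peroxidases GPX1 and GPX4 rose. GPX1 was at 645, 609.8 and 306 FPKM in shControl and 1259, 1770.2 and 1049 FPKM in shTRMT6 (log2 fold change 1.42, limma adjusted p = 0.00879). GPX4, which reduces lipid peroxides, was at 363, 329 and 127 FPKM against 768, 803 and 544 FPKM (1.48, limma adjusted p = 0.0144). GPX1 stayed called in all 14 alternatives, and GPX4 did not pass with median scaling (0.99, limma adjusted p = 0.0652) or without shTRMT6 replicate 2 (0.0513). Both are selenoproteins, and as with FTL and FTH1 their lowest value was in shControl replicate 3.

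Among the thioredoxin, peroxiredoxin and superoxide enzymes more were called lower than higher. Of 19 tested 8 were lower and 1 higher, against 9.04% and 26.5% of all tested genes. With median scaling 10 were lower, against 19.7%, and TXNIP did not pass. The list median was -0.50 on the log2 scale, against 0.39 for all tested genes. SOD1, which removes superoxide, was at 1744, 1658 and 1448 FPKM in shControl and 536, 677 and 554 FPKM in shTRMT6 (-1.46, limma adjusted p = 0.00142). PRDX1 went from 1904 ± 437 to 629.8 ± 58.0 FPKM (SD, n = 3 each, -1.57), with PRDX2 at -1.36 and PRDX6 at -0.97, and these 4 genes stayed called in all 14 alternatives. They are short and abundant, the classes that fell most often, and 36% of genes in the highest bin of mean level were called lower. With trends removed the list had 7 lower genes, against 13.7% of all tested genes, and a median of -0.29. The higher gene was TXNIP, an inhibitor of thioredoxin (1.48), which passed in 9 of 14 alternatives and lost its call without shControl replicate 1 or shTRMT6 replicate 3.

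TALDO1 and PGD belong to the pentose phosphate pathway, the main cytosolic source of NADPH for glutathione reduction. TALDO1, transaldolase of its non-oxidative arm (ENSG00000177156, plus strand of chromosome 11 from 747329 to 765024), was at 592, 505 and 831 FPKM in shControl and at 288, 318 and 292 FPKM in shTRMT6. The knockdown libraries were close together and well under every control library, with means of 643 ± 169 and 299 ± 16.1 FPKM (SD, n = 3 each), a log2 fold change of -1.07 (SE 0.23, limma adjusted p = 0.00738). TALDO1 stayed called in all 14 alternatives (-1.56 to -0.79).

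PGD, phosphogluconate dehydrogenase, the second NADPH-producing step (ENSG00000142657, plus strand of chromosome 1 from 10398592 to 10420144), was at 68.5, 77.6 and 282 FPKM in shControl and at 42.8, 44.6 and 46.6 FPKM in shTRMT6. It was lower in every knockdown library, but shControl replicate 3 was more than 3 times the other control libraries. The log2 fold change of -1.34 (SE 0.46) passed narrowly (limma adjusted p = 0.0475). Without shControl replicate 3 it was -0.70 and still passed (limma adjusted p = 0.0192), while leaving out shTRMT6 replicate 1, 2 or 3 ended the call (0.106, 0.104 and 0.0993).

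In the rest of the pathway the number of calls depended on the scaling. Of 10 tested genes besides these, 1 was higher and 1 lower, against 26.5% and 9.04% of all tested genes. The median log2 fold change was -0.37, against 0.39 for all tested genes. With median scaling 5 were lower, against 19.7% of all, and H6PD did not pass. The median was then -0.82, against -0.07. With trends removed 0 were higher and 1 lower, against 13.5% and 13.7% of all, with a median of -0.59 against -0.06. TKT, transketolase, was at 63.9, 57.5 and 222 FPKM in shControl and 79.3, 87.0 and 101 FPKM in shTRMT6 (-0.08, limma adjusted p = 0.910), and without shControl replicate 3 it turned to 0.54 (limma adjusted p = 0.0491). For PGD and TKT alike shControl replicate 3 was far above the other control libraries. PRPS2, which makes the nucleotide precursor PRPP, fell (-1.06) but lost its call when any 1 knockdown library was left out (limma adjusted p up to 0.0766). H6PD, the enzyme of the endoplasmic reticulum, was the higher gene (1.03) and passed in 0 of 6 fits with a library left out.

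**Figure D5:**
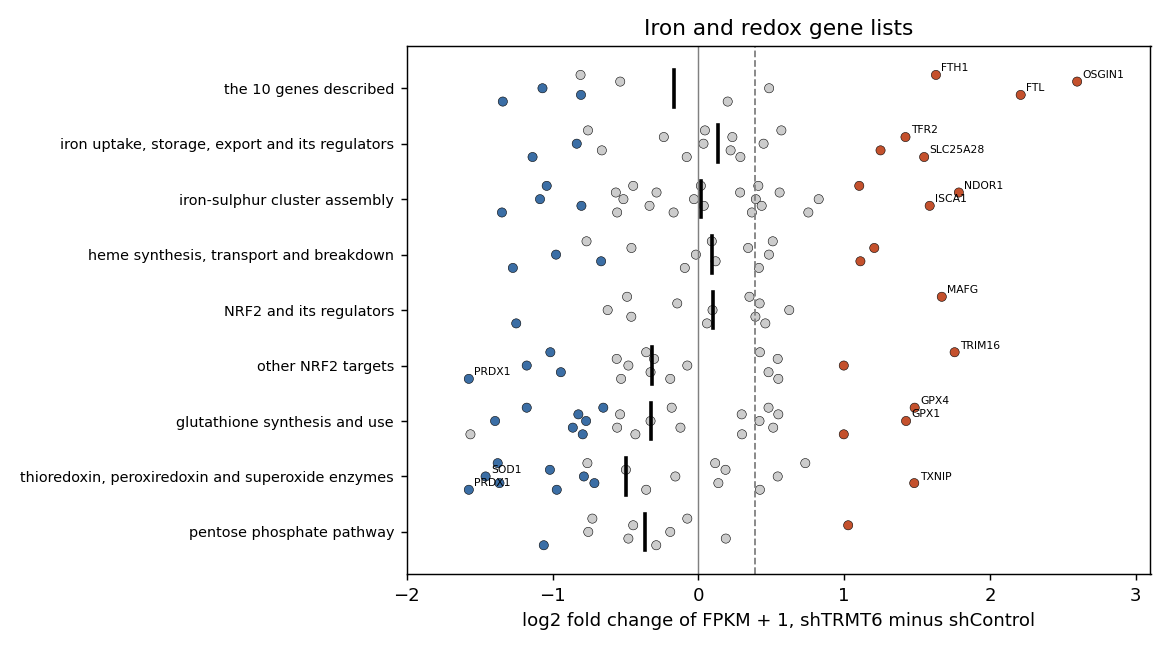
Log2 fold change of FPKM + 1 (shTRMT6 minus shControl) of each tested gene in the 10 genes and in 8 iron and redox lists; orange points were called higher, blue lower, grey not called, black bars are list medians and the dashed line is the median of all tested genes (0.39). List medians run from -0.50 (thioredoxin, peroxiredoxin and superoxide enzymes) to 0.13 (iron uptake, storage, export and its regulators), all left of the dashed line.

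Within the control group the 10 genes already varied in a pattern. In shControl replicate 3 FTL, FTH1 and TFRC had their lowest control values and NQO1, HMOX1, TALDO1 and PGD their highest, while GSR and GCLM were within the range of the other control libraries. Left out, that library changed the call of 0 of the 10 genes, with 3 higher and 3 lower against 28.6% and 12.4% of all tested genes. By likeness of pattern, the 5 genes with the highest Pearson's r of log2(FPKM + 1) with FTL over the 6 libraries, among 2382 other genes with a mean of at least 100 FPKM, were SHC1, GPATCH2L, YAP1, TXNDC9 and CSNK1E (r 0.989 to 0.995). For FTH1 they were PBX3, HSF1, STRN4, ASAP1 and CIZ1 (r 0.992 to 0.997). FTH1 was number 134 in the order for FTL (r = 0.958). The 6 libraries fall in 2 groups, so a gene clearly higher in the knockdown group tends to have a high r with FTL or FTH1. No p is given.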

How the data were processed

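Footprints of 3 shControl and 3 shTRMT6 libraries of RKO cells were analysed. Values are the authors' FPKM, as named in the deposited table's header, with 2 decimals. Fastp, STAR and RSEM appear in the submitters' processing notes, with no version. The build and annotation behind the values were not stated in the labels or the header. Columns named NC and SH were read as shControl and shTRMT6 by number, which no label spells out. Symbols were found for 19705 of 20289 identifiers, and coding lengths came from GENCODE 29.

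Genes at 1 FPKM or more in 3 or more libraries (11566) were tested with limma 3.58.1 (R 4.3.3). The model held only the group, on log2(FPKM + 1), with a trended prior, and p-values were adjusted by Benjamini-Hochberg over all of these genes. Fold changes on this scale understate those of low genes. The script was tested on simulated data. Shares and ratios were tested by two-sided exact permutation (scipy 1.17.1), and no count model was fitted. The estimated depth uses FPKM times coding length of low genes with 1 coding transcript, where 67.0% to 81.0% of values came within 0.1 of whole reads.

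Pathway genes named are up to 4 called genes a direction with the smallest p in each of 8 lists, plus the main regulators. The 10 genes and the lists were chosen with earlier results of these data known. The alternatives were median scaling, division by the library sum, quantile normalization, removal of trends with level and coding length (11410 genes with a length), testing all genes, testing only those averaging 5 FPKM, adding 0.1 instead of 1, blocking on replicate number and leaving out each library. A listed superoxide enzyme was not analysed here, and some listed genes are counted but not reported here by name.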

Additional observations from a re-analysis of the deposited data

How the results depend on the processing

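FTL, FTH1, OSGIN1 and TALDO1 kept direction and call in all 14 alternatives. The count of the 10 genes called lower was 3, and 5 with median scaling, and it ranged from 1 (without shTRMT6 replicate 1 or 2) to 3 when 1 library was left out; the count called higher was 3 or 4 throughout. PGD lost its call as a share of the library sum (adjusted p = 0.0879), without the filter (0.0849) and with a pseudocount of 0.1 (0.0544). Among all tested genes 3069 were higher and 1046 lower. With median scaling these were 1520 and 2275, with quantile normalization 1602 and 1700, and with trends removed 1537 and 1564. Leaving out 1 library gave 1769 (without shTRMT6 replicate 3) to 3290 higher and 590 (without shTRMT6 replicate 1) to 1427 lower genes. The ferritin share differed by 0.133 percentage points, and by 0.155 with genes of mitochondrial DNA left out of the sum. With 1 library left out the log2 fold change of TKT ran from -0.42 to 0.54, the latter without shControl replicate 3. The cause of these shifts was not tested. Of 36 named pathway genes called, 21 passed in all 6 fits without 1 library and 18 in all 14 alternatives. Same-numbered libraries of the groups had correlations of deviations of 0.012, 0.013 and 0.102, so the numbers were not taken as pairs. With the replicate block 3 of the 10 genes were higher and 4 lower (3146 and 1065 of all), GCLM being the added call, and exact p-values of ferritin share and ratios were 0.25. Low depth limits OSGIN1 most.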
